A study of Arabidopsis with 36 samples.

Results

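The 44 genes described here are the nuclear genes of Arabidopsis thaliana for the photosystems and their light-harvesting antennae. They were listed by gene ID, with earlier results of these data known, and make up 44 of the 24532 genes in the expression table: 14 LHCB genes (antenna of photosystem II), 6 LHCA genes (antenna of photosystem I), 12 genes for photosystem I subunits and 12 for photosystem II proteins. RNA was sequenced from roots and from shoots of 3 genotypes at 2 temperatures, with 3 replicates in each of the 12 groups, which gives 36 libraries. The genotypes were hy5-215, a mutant of HY5 (a bZIP transcription factor of light signalling), chl1.5, a loss-of-function mutant of the nitrate transporter NRT1.1, and Col-0, the wild type accession. After 4 days at 21 °C, seedlings spent another 5 days at 28 °C or stayed at 21 °C. Each root replicate was a pool of about 50 roots. The study describes 3 biological repeats, but no label says whether these were grown separately. The p-values therefore measure only the spread between these samples, which may be partly technical.

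Light-harvesting proteins bind chlorophyll a and b and pass the energy they absorb to the reaction centres. The LHCB proteins serve photosystem II, which splits water, and the LHCA proteins serve photosystem I, which reduces ferredoxin. The reaction centre core proteins are encoded in the plastid, whereas the antenna and many of the outer subunits are encoded in the nucleus and imported. In leaves these are among the most abundant transcripts of the plant, and their nuclear genes are known targets of light signalling through HY5 and of the GLK transcription factors. Roots exposed to light can form chloroplasts as well.

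Values are RPKM, read counts scaled to the length of the gene and the total of the library, as the authors deposited them. The root libraries held 61095842 to 89335788 reads on genes and the shoot libraries 51838840 to 84655103, so that 1 read on a gene of 1 kb was worth 0.0138 RPKM at the median depth. The table held 0 plastid genes. Log2 fold changes are on the log2(RPKM + 1) scale, which understates the change of genes near or below 1 RPKM, and adjusted p-values are those of limma after Benjamini-Hochberg adjustment over all genes tested. A gene with an adjusted p under 0.05 is said to have risen, fallen or differed, and a DEG (differentially expressed gene) also had a log2 fold change beyond 1 in size. Counts of members at an unadjusted p have no share of all genes beside them, because that share was not computed. In whole organs, fewer cells that express a gene and less RNA of it per cell cannot be told apart.

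NRT1.1 was at 0 to 0.0115 RPKM in the 6 chl1.5 root libraries, compared with 10.3 to 78.2 RPKM in Col-0 roots. In the 6 shoot libraries labelled chl1.5, however, it was at 12.97 to 19.4 RPKM, and in Col-0 shoots at 7.19 to 17.9 RPKM, so the targeted gene goes against the label of these shoot libraries. HY5 transcripts were at 6.34 to 8.30 RPKM in hy5-215 roots, compared with 24.1 to 50.3 RPKM in Col-0 roots. In shoots they were at 4.76 to 5.96 RPKM in hy5-215, against 4.67 to 8.25 RPKM in Col-0, and the 2 genotypes overlapped, so the level of HY5 does not check the shoot labels. Among the root libraries, replicate 2 of hy5-215 at 28 °C stood apart with less of many members, and results that rest on it are given with and without it.

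Leaf tissue in the root pools was looked for with 9 leaf marker genes. CA1 (carbonic anhydrase) was at 0.00343 to 0.632 RPKM in the 18 root libraries, against 771 to 1154 RPKM in shoots, and FIL, YAB5 (leaf polarity) and FAMA (guard cells) were at no more than 0.0129 RPKM in any root library. MYB60 (guard cells) was at 0.146 to 0.797 RPKM and TMM (stomatal lineage) at 0.0987 to 0.293 RPKM in roots, which is 8.72% and 3.52% of the shoot mean in the 28 °C roots of Col-0 and 3.61% and 1.21% in the 21 °C roots. MYB60 was higher at 28 °C in each Col-0 and chl1.5 root library than in any at 21 °C of that genotype. Other markers went the other way in Col-0 roots. As a share of the shoot mean, SPCH was at 0.964% at 28 °C and 1.65% at 21 °C. CA1 was at 0.00471% and 0.0229%, and PDF1 at 1.42% and 3.43%. YAB3 was at 0.240% at 28 °C and 0.0470% at 21 °C. The highest CA1 level of the roots, in replicate 2 of Col-0 at 21 °C, came with the highest CAB2, CAB3, LHB1B1 and LHCB2.2 levels among Col-0 roots at that temperature. The sum of the 9 markers was at 33.9 to 35.8 RPKM in hy5-215 roots at 28 °C, 34.3 to 39.5 RPKM in hy5-215 roots at 21 °C, 3.64 to 6.06 and 19.5 to 23.7 RPKM in chl1.5 roots at 28 °C and 21 °C, and 3.05 to 3.81 and 11.5 to 15.4 RPKM in Col-0 roots at 28 °C and 21 °C. It ran from 995 to 1539 RPKM in shoots. PDF1, an epidermis gene at 1.96 to 39.1 RPKM, made up most of the sum in each root group. The part of these markers in the results was not tested.

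The photosystem and antenna genes were expressed in roots at a small share of the shoot level, higher in Col-0 and chl1.5 than in hy5-215. Together they took 0.0157 to 0.0239% of the reads in hy5-215 roots at 28 °C and 0.0182 to 0.0216% at 21 °C. In chl1.5 roots the shares were 0.178 to 0.226% at 28 °C and 0.0773 to 0.107% at 21 °C, and in Col-0 roots 0.220 to 0.306% at 28 °C and 0.104 to 0.131% at 21 °C. The shares of the 28 °C and 21 °C libraries overlapped in hy5-215 and lay apart in chl1.5 and in Col-0. The hy5-215 overlap came from replicate 2 at 28 °C (0.0157%), and the other 28 °C libraries (0.0235 and 0.0239%) lay above those at 21 °C. In shoots the 44 genes took 11.3 to 16.1% of the reads.

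Summed over the 14 LHCB genes, the 3 hy5-215 root libraries at 28 °C had 23.9, 54.2 and 59.7 RPKM in rising order and those at 21 °C 22.9, 26.1 and 34.7 RPKM. In chl1.5 roots the LHCB sums were 620, 718 and 800 RPKM at 28 °C and 296, 359 and 424 RPKM at 21 °C. Col-0 roots had 763, 1003 and 1184 RPKM at 28 °C and 401, 482 and 501 RPKM at 21 °C. The LHCB sums of the temperatures lay apart in chl1.5 and in Col-0 roots and overlapped in hy5-215 roots. That overlap came from replicate 2 of hy5-215 at 28 °C (23.9 RPKM), and the other 28 °C libraries lay above those at 21 °C. The 12 photosystem II genes summed to 39.8 to 52.4 RPKM in hy5-215 roots at 28 °C, below the 60.4 to 63.1 RPKM at 21 °C, whereas Col-0 roots had 469 to 597 RPKM at 28 °C and 225 to 272 RPKM at 21 °C. The lower hy5-215 sum was not shared by most of these genes. The ratio of the 28 °C mean to the 21 °C mean was above 1 for 8 of the 12 (median 1.35). It was below 1 for 4: PSBR, PSBO1, PSBO2 and PSBQ-2. The LHCA sums were 31.4 to 41.0 RPKM in hy5-215 roots at 28 °C and 31.99 to 39.5 RPKM at 21 °C, against 226 to 308 and 101 to 127 RPKM in Col-0 roots at 28 °C and 21 °C. The photosystem I sums were 13.9 to 21.0 and 11.9 to 15.7 RPKM in hy5-215 roots at 28 °C and 21 °C, against 222 to 284 and 101 to 130 RPKM in Col-0 roots. The LHCA and photosystem I sums of hy5-215 overlapped between the temperatures. For photosystem I the overlap came from replicate 2 at 28 °C (13.9 RPKM), and the other 28 °C libraries (20.1 and 21.0 RPKM) lay above those at 21 °C.

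**Figure D1:**
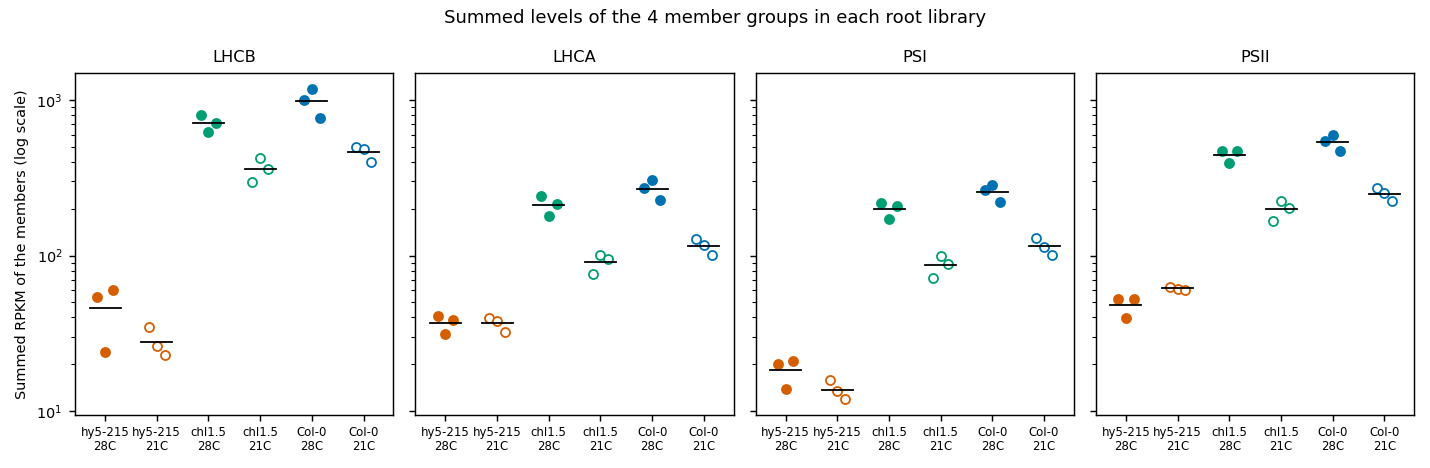
Summed RPKM (log scale) of the members of the LHCB, LHCA, PSI (photosystem I) and PSII (photosystem II) groups in each root library, by genotype and temperature. Points are libraries (filled at 28C, open at 21C) and lines are group means. In Col-0 and chl1.5 the 28C points lie above the 21C points in each panel. In hy5-215 the PSII sums at 28C lie below those at 21C, although 8 of the 12 PSII genes had the higher mean at 28C.

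Most photosystem and antenna genes rose at 28 °C in Col-0 roots. Over all 44 members, the ratio of the 28 °C mean to the 21 °C mean had a median of 2.43 and ran from 0.495 (LHCB2.3) to 6.49 (CAB1), and 40 ratios were above 1. For the test, 38 members passed a filter on the mean over all root libraries (at least 1 RPKM): 36 of these rose and 0 fell, while 37.0% of all 17742 genes tested rose and 29.2% fell. At an unadjusted p under 0.05 as well, and with voom (limma's test on read counts), 0 members fell. DEGs that rose were 25 members, against 2.42% of all genes. The median log2 fold change of the tested members was 1.26, beside 0.03 for all genes tested. By complex, 8 of 10 tested LHCB genes, 5 of 5 LHCA genes, 11 of 11 photosystem I genes and 12 of 12 photosystem II genes rose. CAB3 and LHB1B2 did not pass the test. A member low in hy5-215 could pass the filter through the other genotypes alone, so the counts over the 38 are descriptions, to be read beside the ratios over all 44.

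The chl1.5 roots gave much the same counts: 36 of 38 members rose (38.3% of all genes rose), 0 fell (29.1% of all genes fell), and 24 were DEGs that rose (2.66% of all genes). Neither voom nor the unadjusted p gave a member that fell. The median log2 fold change was 1.26, and the ratio of means over all 44 members had a median of 2.71, from 0.849 (CAB2) to 7.47 (LHCB2.2). The difference between the responses of chl1.5 and Col-0 was called for 0 of the 38 members, against 0.975% of all genes called with a higher and 1.38% with a lower response in chl1.5. At an unadjusted p under 0.05, 1 member had a lower response, by limma on RPKM and by voom alike. The median difference was 0.03, and PSBO2 had the lowest difference (-0.34 ± 0.13, adjusted p = 0.181) and PSAN the highest (0.36 ± 0.29, adjusted p = 0.575). The standard error of the difference reached 0.83 for LHB1B2.

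In hy5-215 roots the warm temperature moved fewer members, and in both directions. Of the 38 tested, 7 rose (36.5% of all genes rose) and 4 fell (24.5% of all genes fell), and 0 were DEGs (3.20% of all genes were). The log2 fold change of PSBR was the largest in size, at -0.88. Voom called 3 members beyond the limit for a DEG. The 7 that rose were LHCA2, LHCA3, LHCB4.1, LHCB4.2, LHCB5, PSBTN and PSBQA, and the 4 that fell were PSBR, PSBQ-2, PSBO1 and PSBO2, which all code for proteins of the oxygen-evolving side of photosystem II. The median log2 fold change was 0.32, beside 0.05 for all genes. Over all 44 members, the ratio of means had a median of 1.44, and 31 ratios were above 1. Without replicate 2 of hy5-215 at 28 °C, 19 members rose, 3 fell and 4 were DEGs.

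The response itself was lower in hy5-215 than in Col-0 roots for 30 of the 38 members (10.4% of all genes had a lower response) and higher for 0 (9.95% of all genes). At an unadjusted p under 0.05, 32 were lower and 0 higher. Voom on read counts called 14 lower and 0 higher: CAB1, LHCA2, LHCA4, LHCB2.1, LHCB4.1, LHCB4.3, PSAD-2, PSAF, PSAO, PSBO1, PSBO2, PSBQ-2, PSBR and PSBX. The median difference was -0.99 on the log2(RPKM + 1) scale and -0.93 with voom. Without the hy5-215 library that stood apart, 27 were lower and 1, LHB1B2, was higher. This comparison and that of chl1.5 with Col-0 share the 6 Col-0 root libraries. Many members lie below 1 RPKM in hy5-215, where the added 1 RPKM shrinks changes. For Lhca5, PSBS and PSBTN, counted among the 30, the ratio of the 28 °C mean to the 21 °C mean was 2.11, 3.85 and 3.97 in hy5-215 and thus not below the 1.72, 2.01 and 3.94 of Col-0, and on the count scale Lhca5 and PSBS had differences above 0 (0.078 and 0.32, neither called).

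**Figure D2:**
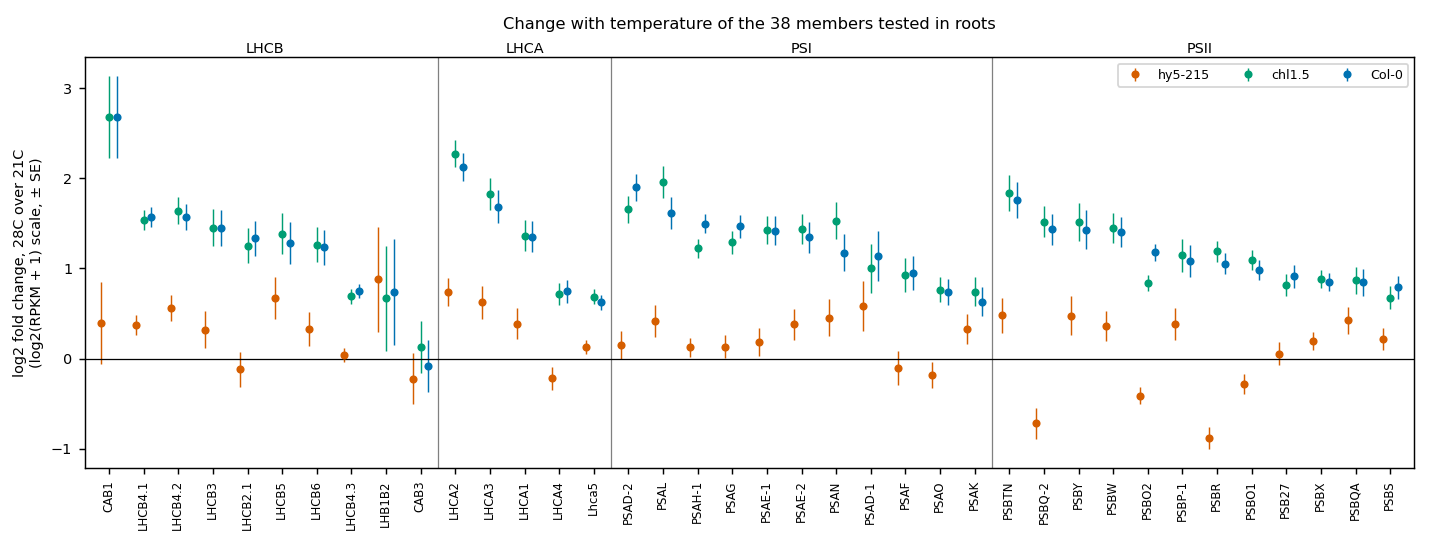
Log2 fold change of 28C over 21C (log2(RPKM + 1) scale) with its standard error for the 38 members tested in roots, in hy5-215, chl1.5 and Col-0, ordered within each group by the change in Col-0. The chl1.5 and Col-0 points lie close together, with a median of 1.26 in each, and most hy5-215 points lie nearer 0, with PSBR, PSBQ-2, PSBO2 and PSBO1 below it.

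Level differences between genotypes were largest for hy5-215. At 28 °C, 37 of 38 members were lower in hy5-215 than in Col-0 roots (22.8% of all genes were lower), 37 by more than 1 on the log2 scale (2.41% of all genes), with a median of -2.99. At 21 °C, 37 were lower as well (18.9% of all genes), 33 by more than 1 (1.75% of all genes), with a median of -1.96. CAB3 did not pass at either temperature. Over all 44 members, the hy5-215 mean was at a median of 0.0640 of the Col-0 mean at 28 °C, from 0.0241 (LHB1B2) to 0.553 (LHCB2.3), and of 0.159 at 21 °C, from 0.0135 (LHB1B2) to 1.59 (LHCB2.3). At 28 °C, 26 members reached a mean of 1 RPKM in hy5-215 roots, against 41 in Col-0 roots, and 5 reached 10 RPKM, against 28 in Col-0.

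Few members passed the test between chl1.5 and Col-0 roots, although most had the lower mean in chl1.5. Over all 44 members the chl1.5 mean was at a median of 0.762 of the Col-0 mean at 28 °C and 0.725 at 21 °C. The ratio was below 1 for 42 members at 28 °C and for 43 at 21 °C. At an unadjusted p under 0.05, 21 of the 38 were lower and 0 higher at 28 °C (voom 28 and 0). At 21 °C, 22 were lower and 1 higher by that rule (voom 20 and 1). The share of all genes by the unadjusted rule was not computed, so these counts cannot show what is particular to the members. At 28 °C only PSAD-2 and PSAH-1 passed, both lower (2.75% of all genes were lower), with a median log2 difference of -0.35 over the 38. At 21 °C, 8 members were lower, LHCA2, CAB3, LHCB2.1, LHCB4.2, PSAL, PSBO1, PSBR and PSBX (11.7% of all genes were lower), with a median of -0.37. Both counts moved when 1 library was left out: to 0 without replicate 2 of chl1.5 and to 10 without replicate 3 of Col-0 at 28 °C, and to 3 without replicate 1 of chl1.5 at 21 °C or replicate 2 of Col-0 at 21 °C and to 18 without replicate 2 of hy5-215 at 28 °C, whose spread enters the shared estimate.

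The LHCB1 proteins, which form the trimers of the main antenna of photosystem II, are encoded by 5 nearly identical genes, CAB1 (AT1G29930), CAB2 (AT1G29920), CAB3 (AT1G29910), LHB1B1 (AT2G34430) and LHB1B2 (AT2G34420), so that reads may have been shared out between them with error. Root transcripts were assigned mostly to LHB1B2, the most abundant member in roots (described in full because of its level). LHB1B2 had 18.6, 1.23 and 22.9 RPKM in hy5-215 roots at 28 °C and 6.74, 4.15 and 3.21 RPKM at 21 °C (replicates 1 to 3, as in all lists of 3 values). In chl1.5 roots it had 502, 391 and 447 RPKM at 28 °C and 233, 335 and 279.6 RPKM at 21 °C. Col-0 roots had 589, 733 and 453 RPKM at 28 °C and 375, 355 and 314 RPKM at 21 °C. The 2 temperatures did not overlap in Col-0 or in chl1.5, and each hy5-215 library lay far below each Col-0 library. The change with temperature in Col-0 (0.74 ± 0.59, adjusted p = 0.277) was not called, in a fit whose spread for this gene includes the low hy5-215 replicate. Without that library, the adjusted p for Col-0 was 0.00508, and in the fit of the compared groups only it was 0.00366. The hy5-215 level differed from Col-0 at 28 °C (-5.84 ± 0.59, adjusted p = 4.83e-07) and at 21 °C (-5.98 ± 0.59, adjusted p = 5.82e-07). Without the low library, LHB1B2 rose in hy5-215 (1.97, adjusted p = 5.44e-06), its response was higher in hy5-215 than in Col-0 (1.23, adjusted p = 0.0124), and the difference at 28 °C was -4.75 (adjusted p = 2.31e-10).

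CAB1 showed the largest response of the LHCB genes. It was at 6.84, 0.809 and 8.12 RPKM in hy5-215 roots at 28 °C and 4.32, 2.66 and 1.92 RPKM at 21 °C. In Col-0 roots it was at 159.6, 168 and 112 RPKM at 28 °C and 24.98, 28.5 and 14.2 RPKM at 21 °C, with no overlap between the temperatures. The change in Col-0 roots was 2.68 ± 0.45, adjusted p = 7.9e-05, and chl1.5 roots, at 86.3, 68.0 and 77.2 RPKM at 28 °C and 7.80, 13.8 and 12.7 RPKM at 21 °C, changed by 2.68 as well (adjusted p = 7.16e-05). In hy5-215 roots the 28 °C libraries lay on both sides of those at 21 °C and the change was 0.39 ± 0.45, adjusted p = 0.463; without replicate 2 at 28 °C it was 1.14, adjusted p = 0.00408. The response was lower in hy5-215 than in Col-0 by a difference of -2.28 ± 0.64, adjusted p = 0.0196 (voom -2.44, adjusted p = 0.0447). Without replicate 2 of hy5-215 at 28 °C the limma difference was -1.54, adjusted p = 0.0137.

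The other LHCB1 genes were low in roots. CAB3 had 1.63, 2.80 and 1.39 RPKM in Col-0 roots at 28 °C and 1.60, 4.65 and 0.924 RPKM at 21 °C, which overlapped, and its change (-0.08 ± 0.29, adjusted p = 0.814) was the smallest of the LHCB genes tested. CAB2, under the filter in roots, had 0.355, 2.74 and 0.241 RPKM in Col-0 at 28 °C and 0.582, 3.40 and 0.143 RPKM at 21 °C, and at most 0.837 RPKM in hy5-215 roots. LHB1B1, also under the filter, had 0.107, 0.349 and 0.0575 RPKM at 28 °C and 0.148, 0.864 and 0.0180 RPKM at 21 °C. In both genes replicate 2 was the highest Col-0 library at either temperature.

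Of the 3 LHCB2 genes, which encode the second protein of the trimers, LHCB2.1 (AT2G05100) was the one above the filter. It had 0.420, 0.155 and 0.433 RPKM in hy5-215 roots at 28 °C and 0.538, 0.332 and 0.470 RPKM at 21 °C, against 7.61, 8.42 and 5.57 RPKM in Col-0 roots at 28 °C and 2.80, 2.87 and 1.27 RPKM at 21 °C. It rose in Col-0 (1.33 ± 0.19, adjusted p = 1.95e-05), where the temperatures did not overlap, and its response was lower in hy5-215 (-1.45 ± 0.28, adjusted p = 0.00195; voom -2.27, adjusted p = 0.0332). LHCB2.2 (AT2G05070) had 1.34, 2.64 and 1.12 RPKM in Col-0 roots at 28 °C and 0.236, 1.23 and 0.0190 RPKM at 21 °C. LHCB2.3 (AT3G27690), too low for the test in roots, had a lower mean at 28 °C in Col-0, at 0.187, 0.279 and 0.133 RPKM against 0.272, 0.604 and 0.335 RPKM at 21 °C. In hy5-215 it was at 0.103, 0.138 and 0.0906 RPKM at 28 °C and 0.866, 0.763 and 0.295 RPKM at 21 °C, and all 3 LHCB2 genes had the lower mean at 28 °C there. In chl1.5 roots LHCB2.3 was higher at 28 °C, at 0.469, 0.403 and 0.217 RPKM against 0.0184, 0.0634 and 0.0702 RPKM at 21 °C.

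LHCB4.1 (AT5G01530), for CP29, a minor antenna protein between the trimers and the photosystem II core, had, with LHCB4.2, the next highest log2 fold change of the LHCB genes tested in Col-0 roots. Its levels were 12.8, 11.8 and 11.7 RPKM in hy5-215 roots at 28 °C and 9.30, 9.32 and 8.71 RPKM at 21 °C. Col-0 roots had 72.9, 76.7 and 57.1 RPKM at 28 °C and 24.2, 22.6 and 20.4 RPKM at 21 °C. The temperatures did not overlap in either genotype. LHCB4.1 rose in Col-0 (1.57 ± 0.11, adjusted p = 8.3e-09) and by less in hy5-215 (0.37 ± 0.11, adjusted p = 0.00817), and the difference passed (-1.20 ± 0.16, adjusted p = 9.07e-05). LHCB3 (AT5G54270), LHCB4.2 (AT3G08940), LHCB5 (AT4G10340) (CP26) and LHCB6 (AT1G15820) (CP24) rose in Col-0 roots by 1.45, 1.57, 1.28 and 1.23 and were lower in hy5-215 than in Col-0 at 28 °C by log2 differences of -3.69, -2.51, -3.72 and -3.40. LHCB4.3 (AT2G40100), a rarely expressed form of CP29, was at 0.416 RPKM in hy5-215 roots and 2.21 RPKM in Col-0 roots at 28 °C (means).

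The LHCA genes encode the belt of antenna proteins on 1 side of photosystem I. LHCA2 (AT3G61470) changed most: it had 3.5, 1.96 and 3.4 RPKM in hy5-215 roots at 28 °C and 1.60, 1.34 and 1.05 RPKM at 21 °C, against 32.7, 33.6 and 25.9 RPKM in Col-0 roots at 28 °C and 6.34, 7.05 and 5.40 RPKM at 21 °C. Both genotypes had each 28 °C library above each 21 °C library. The change was 0.74 ± 0.15, adjusted p = 0.000653 in hy5-215 and 2.13 ± 0.15, adjusted p = 1.21e-08 in Col-0, with a difference of -1.38 ± 0.22, adjusted p = 0.000471 (voom -1.19, adjusted p = 0.0243). In chl1.5 roots LHCA2 had 24.7, 18.1 and 22.4 RPKM at 28 °C and 3.25, 3.98 and 3.80 RPKM at 21 °C (2.27 ± 0.15, adjusted p = 4.01e-09).

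LHCA3 (AT1G61520) had 4.12, 2.18 and 4.35 RPKM in hy5-215 roots at 28 °C and 2.24, 1.70 and 1.73 RPKM at 21 °C, against 75.0, 83.6 and 60.9 RPKM in Col-0 roots at 28 °C and 25.2, 21.7 and 19.1 RPKM at 21 °C. It rose in Col-0 (1.68 ± 0.18, adjusted p = 7.73e-07) and in hy5-215 (0.62 ± 0.18, adjusted p = 0.00737), although 1 hy5-215 library at 28 °C lay within the range at 21 °C. The difference of the responses was -1.06 ± 0.26, adjusted p = 0.00867 by limma and did not pass with voom (-0.89, adjusted p = 0.116). LHCA4 (AT3G47470) (chosen after its values were seen) was the most abundant member in hy5-215 roots and had the smallest difference from Col-0 of the LHCA genes tested, at 27.5, 22.98 and 25.7 RPKM in hy5-215 at 28 °C and 31.05, 31.6 and 26.4 RPKM at 21 °C, against 111, 124 and 94.8 RPKM in Col-0 roots at 28 °C and 71.8, 65.2 and 58.0 RPKM at 21 °C. Its change was -0.22 ± 0.13, adjusted p = 0.144 in hy5-215 and 0.75 ± 0.13, adjusted p = 7.7e-05 in Col-0. LHCA1 (AT3G54890) rose in Col-0 roots by 1.35.

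Lhca5 (AT1G45474) and Lhca6 (AT1G19150) are the antenna proteins that link photosystem I to the NDH complex of cyclic electron flow, and they differed widely in roots. Lhca5 was at 0.236, 0.0701 and 0.295 RPKM in hy5-215 roots at 28 °C and 0.0831, 0.131 and 0.0707 RPKM at 21 °C, against 5.43, 5.43 and 4.65 RPKM in Col-0 roots at 28 °C and 3.34, 2.94 and 2.75 RPKM at 21 °C. Its change in Col-0 was the smallest of the LHCA genes tested on the log2(RPKM + 1) scale (0.62 ± 0.08, adjusted p = 5.5e-06), while by ratio of means that of LHCA4 was (1.69, against 1.72 for Lhca5). Lhca6 was the lowest member, with 0, 0.0487 and 0.0562 RPKM in Col-0 roots at 28 °C and 0, 0.0610 and 0 RPKM at 21 °C, which is 0 to 6 reads in a library, and no fold change is given for it in roots.

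Among photosystem I subunits, PSAD-2 (AT1G03130), which helps to form the docking site of ferredoxin on the stromal side, had the highest log2 fold change with temperature on the log2(RPKM + 1) scale, while PSAG had the higher ratio of means (5.98, against 4.51 for PSAD-2). It was at 2.11, 2.50 and 2.19 RPKM in hy5-215 roots at 28 °C and 1.96, 1.81 and 2.04 RPKM at 21 °C. In chl1.5 roots it was at 12.4, 8.71 and 11.6 RPKM at 28 °C and 2.45, 2.64 and 3.18 RPKM at 21 °C, and in Col-0 roots at 16.5, 20.5 and 12.7 RPKM at 28 °C and 4.03, 4.19 and 2.81 RPKM at 21 °C. The temperatures did not overlap in any genotype, and all 6 hy5-215 libraries lay below every Col-0 library. The change was 0.15 ± 0.15, adjusted p = 0.401 in hy5-215 and 1.90 ± 0.15, adjusted p = 3.12e-08 in Col-0, and the difference of the responses was -1.75 ± 0.21, adjusted p = 5.31e-05 (voom -1.95, adjusted p = 0.00206).

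PSAL (AT4G12800), at the side of photosystem I where the mobile antenna docks, was at 1.102, 0.408 and 1.27 RPKM in hy5-215 roots at 28 °C and 0.585, 0.397 and 0.283 RPKM at 21 °C, against 21.8, 22.4 and 16.5 RPKM in Col-0 roots at 28 °C and 7.12, 6.19 and 4.57 RPKM at 21 °C. It rose in Col-0 (1.61 ± 0.18, adjusted p = 9.16e-07). PSAH-1 (AT3G16140), of the same docking side, was at 0.245, 0.0339 and 0.259 RPKM in hy5-215 roots at 28 °C and 0.105, 0.0725 and 0.0513 RPKM at 21 °C, against 6.30, 6.44 and 5.26 RPKM in Col-0 roots at 28 °C and 1.58, 1.65 and 1.22 RPKM at 21 °C. The hy5-215 temperatures overlapped for PSAL and PSAH-1, and the Col-0 temperatures did not. In both genes the overlap came from replicate 2 of hy5-215 at 28 °C, and the other 28 °C libraries lay above those at 21 °C. Without that library, PSAL rose in hy5-215 (limma 0.62, adjusted p = 0.0042) and PSAH-1 did not pass (0.22, adjusted p = 0.097). PSAH-1 rose in Col-0 (1.49 ± 0.10, adjusted p = 8.58e-09), with a difference of response of -1.37 ± 0.15, adjusted p = 1.89e-05 by limma, which did not pass with voom (-1.23, adjusted p = 0.244). Its paralog PSAH2 (AT1G52230), under the filter in roots, had 1.73, 1.82 and 1.46 RPKM at 28 °C and 0.926, 0.753 and 0.514 RPKM at 21 °C in Col-0.

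PSAK (AT1G30380), an outer subunit next to the antenna, had the smallest change of the photosystem I genes in Col-0 roots. It had 3.01, 1.42 and 3.38 RPKM in hy5-215 roots at 28 °C and 1.96, 1.76 and 1.63 RPKM at 21 °C, against 36.6, 37.4 and 33.9 RPKM in Col-0 roots at 28 °C and 25.4, 22.4 and 20.9 RPKM at 21 °C. It rose in Col-0 (0.63 ± 0.16, adjusted p = 0.00287), and its difference of response between hy5-215 and Col-0 was not called (-0.30 ± 0.23, adjusted p = 0.38). The remaining tested subunits rose in Col-0 roots by 0.74 (PSAO) to 1.47 (PSAG) and were lower in hy5-215 than in Col-0 roots at 28 °C by log2 differences between -4.27 (PSAF, the plastocyanin docking subunit) and -1.81 (PSAN, a lumenal subunit).

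In photosystem II, 4 genes for proteins around the oxygen-evolving manganese cluster fell in hy5-215 roots and rose in Col-0 roots. PSBR (AT1G79040), a small subunit that helps to hold the lumenal proteins shielding this cluster, was at 14.3, 10.7 and 13.9 RPKM in hy5-215 roots at 28 °C and 25.2, 24.9 and 23.6 RPKM at 21 °C. Col-0 roots had 198, 224 and 173 RPKM at 28 °C and 100.2, 96.1 and 87.8 RPKM at 21 °C, and chl1.5 roots 178, 146 and 177 RPKM at 28 °C and 61.4, 82.5 and 75.3 RPKM at 21 °C. Each 28 °C library lay below each 21 °C library in hy5-215 and above it in Col-0 and chl1.5. PSBR fell in hy5-215 (-0.88 ± 0.12, adjusted p = 1.28e-05) and rose in Col-0 (1.05 ± 0.12, adjusted p = 1.42e-06), with a difference of -1.93 ± 0.17, adjusted p = 2.82e-06 (voom -1.99, adjusted p = 5.19e-06).

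PSBQ-2 (AT4G05180), for an extrinsic subunit of the same shield, was at 1.60, 0.658 and 1.83 RPKM in hy5-215 roots at 28 °C and 2.90, 2.72 and 2.71 RPKM at 21 °C, against 23.1, 23.99 and 20.7 RPKM in Col-0 roots at 28 °C and 8.33, 8.07 and 6.84 RPKM at 21 °C. Again the temperatures did not overlap in either genotype. PSBQ-2 fell in hy5-215 (-0.72 ± 0.17, adjusted p = 0.00194) and rose in Col-0 (1.43 ± 0.17, adjusted p = 2.38e-06), with a difference of -2.15 ± 0.24, adjusted p = 2.58e-05 (voom -2.72, adjusted p = 9.55e-05). The 2 genes for the manganese-stabilising protein, described because they also fell in hy5-215, were PSBO2 (AT3G50820), at 7.11, 6.31 and 6.51 RPKM in hy5-215 roots at 28 °C and 8.54, 8.41 and 10.7 RPKM at 21 °C, and PSBO1 (AT5G66570), at 10.2, 8.75 and 10.3 RPKM at 28 °C and 11.7, 12.2 and 12.2 RPKM at 21 °C. The change in hy5-215 was -0.41 ± 0.09, adjusted p = 0.00104 for PSBO2 and -0.28 ± 0.11, adjusted p = 0.039 for PSBO1. Without replicate 2 of hy5-215 at 28 °C, PSBR, PSBQ-2 and PSBO2 still fell (by 0.76, 0.48 and 0.38), and PSBO1 did not pass (-0.21, adjusted p = 0.15). Not every gene of the shield fell: PSBP-1 (AT1G06680) had a change of 0.38 ± 0.18, adjusted p = 0.0782 (without that library it rose, by 0.60, adjusted p = 0.00552), and PSBQA (AT4G21280), the paralog of PSBQ-2, rose (0.42 ± 0.15, adjusted p = 0.0227).

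PSBTN (AT3G21055), a small lumenal subunit, had the largest change of the photosystem II genes in Col-0 roots. It was at 0.804, 0.103 and 1.16 RPKM in hy5-215 roots at 28 °C and 0.374, 0.110 and 0.0346 RPKM at 21 °C, against 17.2, 18.7 and 14.2 RPKM in Col-0 roots at 28 °C and 4.46, 4.81 and 3.44 RPKM at 21 °C. The temperatures overlapped in hy5-215 and not in Col-0, where it rose (1.76 ± 0.20, adjusted p = 1.18e-06). The hy5-215 overlap came from replicate 2 at 28 °C, and the other 28 °C libraries lay above those at 21 °C. PSBTN rose in hy5-215 with that library (0.48) and without it (0.76, limma adjusted p = 0.000902). PSBS (AT1G44575), which triggers the harmless release of excess light energy as heat, had the smallest change on the log2(RPKM + 1) scale, although not by ratio of means (2.01, against 1.83 for PSBX), with 0.284, 0.0298 and 0.430 RPKM in hy5-215 roots at 28 °C and 0.109, 0.0454 and 0.0386 RPKM at 21 °C, against 5.46, 4.83 and 4.55 RPKM in Col-0 roots at 28 °C and 2.88, 2.62 and 1.88 RPKM at 21 °C (0.79 ± 0.13, adjusted p = 4.78e-05 in Col-0). The other photosystem II genes tested, PSBP-1, PSBQA, PSBW (AT2G30570), PSBX (AT2G06520), PSBY (AT1G67740) and PSB27 (AT1G03600), rose in Col-0 roots by 0.85 (PSBQA) to 1.43 (PSBY).

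**Figure D3:**
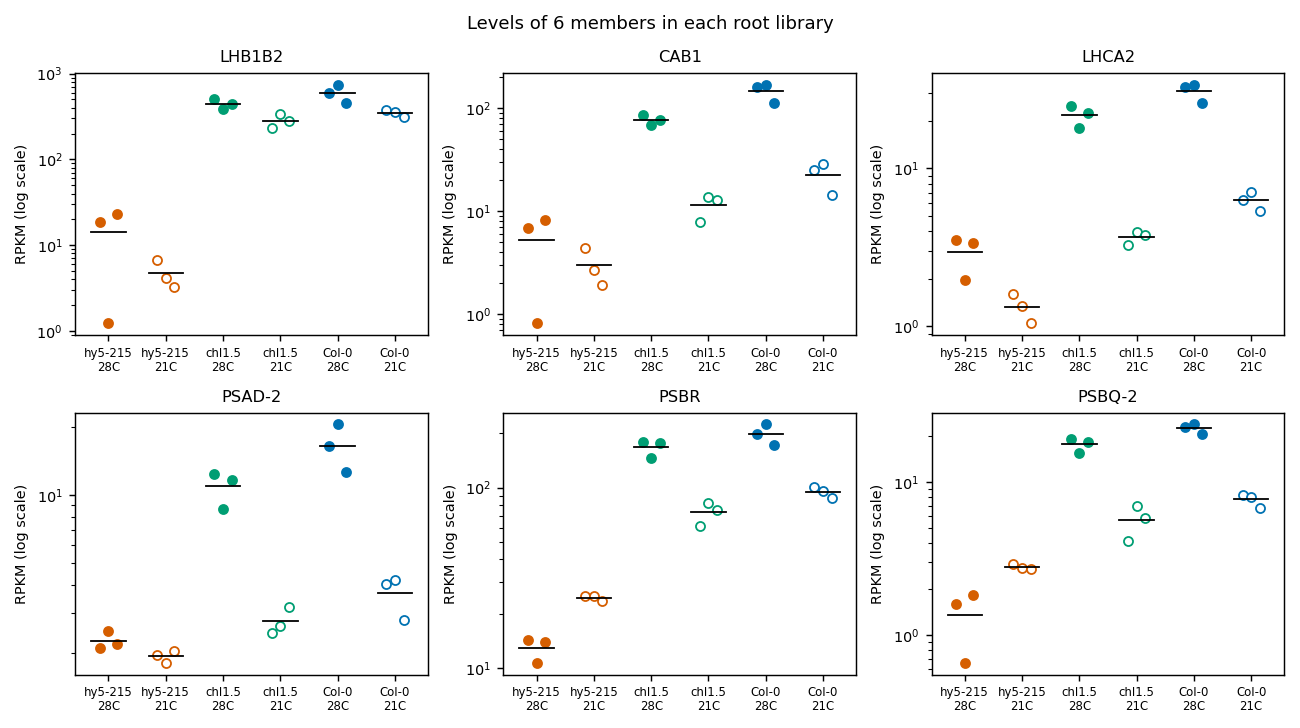
RPKM (log scale, a separate axis for each gene) of LHB1B2, CAB1, LHCA2, PSAD-2, PSBR and PSBQ-2 in each root library, filled at 28C and open at 21C, with lines at the group means. In hy5-215 the 28C points of PSBR and PSBQ-2 lie below those at 21C, whereas in chl1.5 and Col-0 the 28C points lie above, and the second hy5-215 library at 28C is low for LHB1B2 and CAB1.

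Relative to shoots, the members were expressed in roots to very different degrees. In Col-0, the root mean was a median of 1.68% of the shoot mean at 28 °C, from 0.0110% (LHB1B1) to 18.9% (LHCB4.3), and 0.558% at 21 °C. In hy5-215 the medians were 0.112% at 28 °C and 0.0727% at 21 °C. Near-identical LHCB1 genes stood far apart: LHB1B2 was at 4.03% of its Col-0 shoot mean at 28 °C and CAB1 at 1.09%, whereas CAB3 was at 0.0360%, CAB2 at 0.0257% and LHB1B1 at 0.0110%. CAB3, CAB2 and CAB1 lie next to each other on chromosome 1, and LHB1B2 and LHB1B1 on chromosome 2, with 0 other genes between neighbours in the TAIR10.1 annotation. Of the RPKM summed over the 5 LHCB1 genes, LHB1B2 took 79.8 ± 1.22% in the 28 °C roots of Col-0 and 93.0 ± 2.46% in the 21 °C roots, against 37.3% and 26.7% in Col-0 shoots at these temperatures (means, SD, n = 3). CAB1 took 19.8 ± 1.39% in the 28 °C roots and 5.93 ± 1.498% in the 21 °C roots, against 34% and 34.9% in shoots. In the PSAH pair, PSAH-1 took 78.2% in the 28 °C roots and 67.4% in the 21 °C roots, against 29.9% and 26.8% in shoots. Lhca5 was at 7.47% of its shoot mean in Col-0 roots at 28 °C and Lhca6 at 0.0413%.

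**Figure D4:**
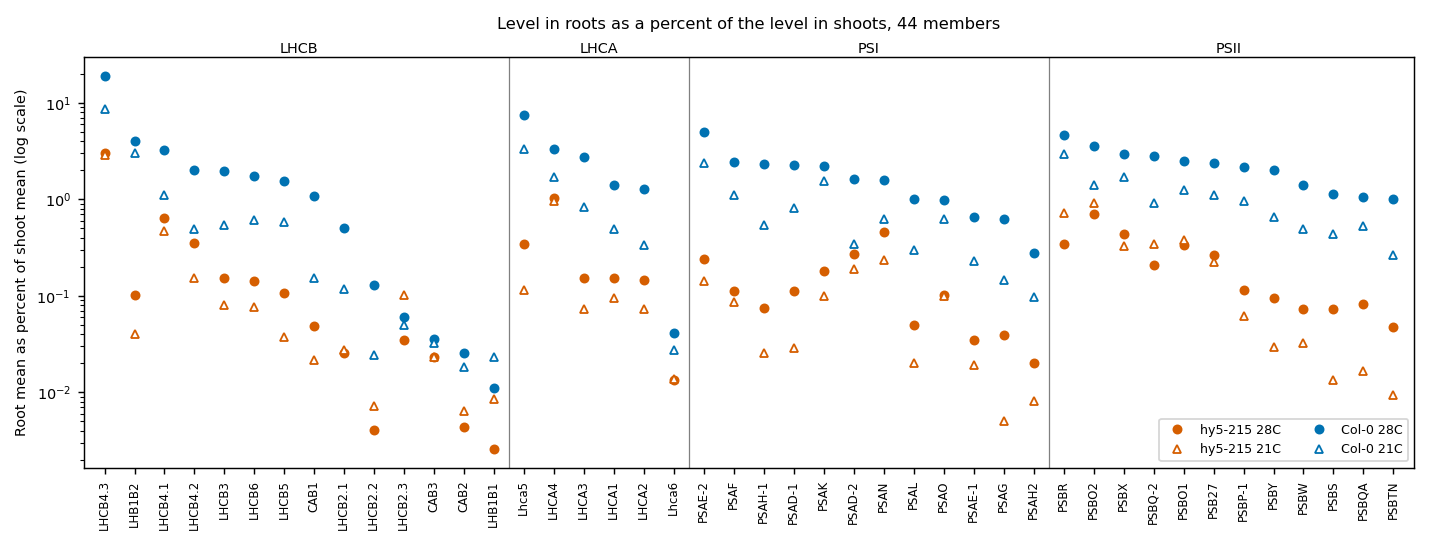
Mean RPKM in roots as a percent of the mean in shoots (log scale) for the 44 members in hy5-215 and in Col-0, circles at 28C and triangles at 21C, ordered within each group by the Col-0 value at 28C. The Col-0 medians are 1.68% at 28C and 0.558% at 21C, the hy5-215 medians 0.112% and 0.0727%, and LHB1B1 and Lhca6 lie far below their relatives LHB1B2 and Lhca5 in Col-0.

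Shoots did not share the rise. In Col-0 shoots, where all 44 members passed the filter, 10 rose at 28 °C (46.2% of all 16817 genes tested rose) and 22 fell (30.7% of all genes fell), with a median log2 fold change of -0.07 beside 0.08 for all genes. The only DEG was LHCB2.3, which fell (1.93% of all genes were DEGs that fell). The LHCB sum was 52111 to 55182 RPKM at 28 °C and 59426 to 61543 RPKM at 21 °C, and the photosystem I sum 15523 to 15703 RPKM at 28 °C and 15668 to 15851 RPKM at 21 °C. Of the trimer genes, LHCB2.3 and CAB2 had the lowest log2 fold changes of the members, while LHB1B2 rose (0.37). LHCB2.3 was at 349, 328 and 326 RPKM at 28 °C and 831, 817 and 798 RPKM at 21 °C (-1.28 ± 0.04, adjusted p = 1.69e-14). CAB2 was at 4371, 4361 and 4259 RPKM at 28 °C and 7605, 7446 and 7515 RPKM at 21 °C (-0.80 ± 0.03, adjusted p = 5.46e-13). For both genes the temperatures lay far apart relative to the spread of the replicates.

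Lhca5 fell in Col-0 shoots, with 71.3, 68.4 and 68.2 RPKM at 28 °C and 90.6, 89.99 and 87.9 RPKM at 21 °C (-0.36 ± 0.03, adjusted p = 3.01e-09), and PSBS fell, with 428, 434 and 434 RPKM at 28 °C and 563, 568 and 565 RPKM at 21 °C (-0.39 ± 0.02, adjusted p = 1.97e-12). Both had no overlap between the temperatures, and both rose in Col-0 roots. LHCA2 rose in Col-0 shoots, with 2481, 2365 and 2322 RPKM at 28 °C and 1905, 1853 and 1825 RPKM at 21 °C (0.36 ± 0.05, adjusted p = 1.18e-06). PSBR rose, with 4358, 4258 and 4163 RPKM at 28 °C and 3285, 3173 and 3147 RPKM at 21 °C (0.41 ± 0.05, adjusted p = 5.81e-07). PSAE-2 (AT2G20260), for a subunit at the ferredoxin side of photosystem I, rose as well, with 495, 458 and 456 RPKM at 28 °C and 368, 363 and 354 RPKM at 21 °C (0.38 ± 0.04, adjusted p = 2.65e-07). In these genes too the temperatures did not overlap. PSAG, a subunit that binds the LHCA belt, varied more between replicates, with 425, 661 and 537 RPKM at 28 °C and 338, 368 and 470.2 RPKM at 21 °C (0.45 ± 0.16, adjusted p = 0.017), and its temperatures overlapped.

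The fall was broader in hy5-215 shoots and in the shoot libraries labelled chl1.5. In hy5-215 shoots 37 members fell (30.4% of all genes) and 5 rose (46.8% of all genes), with a median of -0.30. In the libraries labelled chl1.5, in which NRT1.1 was present, 39 fell (28.4% of all genes) and 1 rose (Lhca6; 49.9% of all genes), with a median of -0.31. LHCB2.3 fell in both, with 308, 339 and 311 RPKM at 28 °C and 598, 662 and 650.3 RPKM at 21 °C in hy5-215 (-0.99 ± 0.04, adjusted p = 5.11e-13) and 311, 336 and 329 RPKM at 28 °C and 886, 861 and 905 RPKM at 21 °C in the libraries labelled chl1.5 (-1.44 ± 0.04, adjusted p = 4.05e-15). The difference from the Col-0 response was tested directly. The response was lower than in Col-0 for 28 members in hy5-215 (22.8% of all genes) and higher for CAB2 and LHCB2.3 (27.4% of all genes), and all 12 photosystem I genes were among the lower. In the libraries labelled chl1.5 it was lower for 30 (25.8% of all genes), again with all 12 photosystem I genes, and higher for PSBS (30.5% of all genes). The 2 comparisons share the 6 Col-0 shoot libraries. PSAG differed most, by -0.98 ± 0.23, adjusted p = 0.00185 in hy5-215 and -0.92 ± 0.23, adjusted p = 0.00254 in the libraries labelled chl1.5. For the other photosystem I genes the differences were small, from -0.45 (PSAO) to -0.17 (PSAL) in hy5-215.

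Genotype differences in shoots were small beside those in roots. At 28 °C, 37 members were lower in hy5-215 than in Col-0 shoots (30.4% of all genes) and 1, LHCB4.3, was higher (25.8% of all genes), and over the 44 members the hy5-215 mean was at a median of 0.880 of the Col-0 mean. At 21 °C, 16 were lower (34.6% of all genes) and 10 higher (25.7% of all genes), and scaling by the median of ratios turned this split to 9 lower and 10 higher. LHB1B1 had the largest difference (named after its values were seen), with 765, 876 and 774 RPKM in hy5-215 and 1586, 1554 and 1509 RPKM in Col-0 shoots at 28 °C (-0.95 ± 0.06, adjusted p = 1.7e-10) and a log2 difference of -0.64 at 21 °C. Its levels did not overlap between these genotypes at either temperature. Its neighbour LHB1B2 did not pass at either (-0.08 at 28 °C and 0.05 at 21 °C). The shoot libraries labelled chl1.5 had 16 members lower (23.9% of all genes) and 1 higher than Col-0 shoots at 28 °C (LHCA4; 23.8% of all genes), and 2 lower (27.9% of all genes) and 33 higher at 21 °C (20.6% of all genes), all 12 photosystem I genes among the higher. At 28 °C the count of 17 went to 9 without replicate 3 of the libraries labelled chl1.5.

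**Figure D5:**
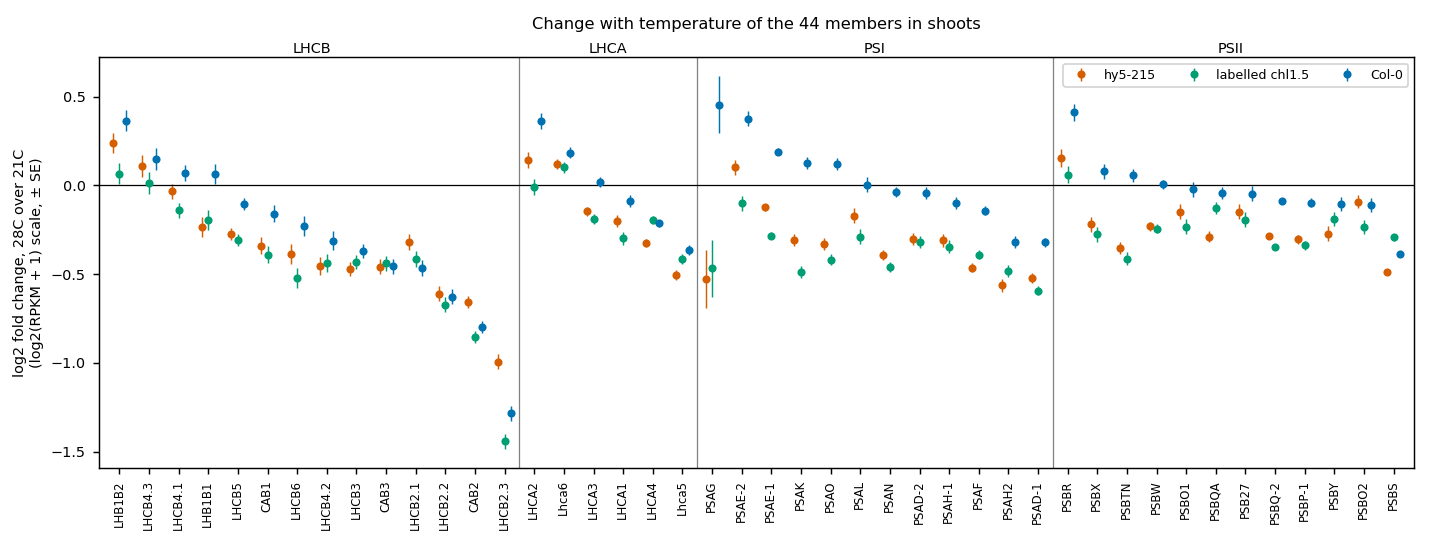
Log2 fold change of 28C over 21C (log2(RPKM + 1) scale) with its standard error for the 44 members in shoots, in hy5-215, the libraries labelled chl1.5 and Col-0, ordered within each group by the change in Col-0. LHCB2.3 and CAB2 lie lowest in each genotype, and the PSI points of hy5-215 and of the libraries labelled chl1.5 lie below those of Col-0.

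The difference between the organs was tested in 1 fit over all 36 libraries. No label says whether roots and shoots of equal replicate number came from the same seedlings, and this fit did not pair them. It used 1 estimate of the spread per gene for both organs. The response of Col-0 roots was higher than that of Col-0 shoots for 39 of the 44 members (28.9% of all 18173 genes tested), for 28 of them by more than 1 (2.26% of all genes), and lower for 1 (32.4% of all genes), with a median difference of 1.19 beside -0.01 for all genes. CAB1 (2.84 ± 0.48, adjusted p = 9.64e-06) and PSAD-2 (1.94 ± 0.16, adjusted p = 3.12e-11) had the highest differences on the log2(RPKM + 1) scale. The 1 lower member was Lhca6 (-0.16 ± 0.05, adjusted p = 0.00258), which is near 0 in roots and had a difference of 1.05, not called, on the count scale. CAB2, CAB3, LHB1B1 and LHB1B2 did not pass. Members under the filter in roots passed the filter of this fit through their shoot levels, and below 1 RPKM the added 1 RPKM shrinks their root changes. LHCB2.3, counted among the 39, had the lower mean at 28 °C in both organs, with ratios of 0.495 in Col-0 roots and 0.410 in Col-0 shoots. Its call therefore does not show a rise in roots.

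Nuclear genes of the rest of the photosynthetic electron transport chain rose in Col-0 and chl1.5 roots as well. Of 14 genes for electron transport and the chloroplast ATP synthase, 14 rose in Col-0 roots at 28 °C (median log2 fold change 0.95; 37.0% of all genes rose), and 14 rose in chl1.5 roots (median 0.93; 38.3% of all genes). In hy5-215 roots 6 rose (36.5% of all genes) and 2 fell (24.5% of all genes), with a median of 0.25. DRT112 (AT1G20340), the major plastocyanin, which carries electrons to photosystem I, had 1.93, 0.0607 and 2.43 RPKM in hy5-215 roots at 28 °C and 0.721, 0.335 and 0.378 RPKM at 21 °C, against 48.2, 49.4 and 41.9 RPKM in Col-0 roots at 28 °C and 15.1, 12.9 and 10.9 RPKM at 21 °C (1.77 ± 0.30, adjusted p = 9.38e-05 in Col-0). No hy5-215 library reached the lowest Col-0 library. AT2G26500, a locus with no symbol in the reference annotation, had the highest log2 fold change of this list in Col-0 (2.03 ± 0.18, adjusted p = 1.29e-07). At 28 °C, 13 of the 14 were lower in hy5-215 than in Col-0 roots (22.8% of all genes), with a median of -1.63, and the response was lower in hy5-215 for 10 (10.4% of all genes).

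Of 17 genes that assemble, insert or repair the photosystems, 12 rose in Col-0 roots (median 0.38; 37.0% of all genes rose) and 14 in chl1.5 roots (median 0.39; 38.3% of all genes). In hy5-215 roots 7 rose (36.5% of all genes) and 3 fell (24.5% of all genes), with a median of -0.01. The largest log2 fold change in Col-0 was that of CAO, listed at the locus AT2G47450 for a protein that delivers light-harvesting proteins to the thylakoid, with 5.06, 4.99 and 4.05 RPKM in hy5-215 roots at 28 °C and 3.00, 3.11 and 2.02 RPKM at 21 °C, against 23.6, 27.2 and 17.9 RPKM in Col-0 roots at 28 °C and 7.34, 5.89 and 5.44 RPKM at 21 °C (1.72 ± 0.18, adjusted p = 6.98e-07 in Col-0). Its Col-0 temperatures did not overlap. PAM68 (AT4G19100) (photosystem II assembly) rose by 0.84 in Col-0. At 28 °C, 16 of the 17 were lower in hy5-215 than in Col-0 roots (22.8% of all genes), with a median of -0.95.

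Of 6 regulators of these genes, 3 passed the filter in roots, and GLK1, GNC and CGA1 did not. HY5 itself had the highest log2 fold change of the 3 in Col-0 roots (0.73) and in chl1.5 roots (0.84). It rose in both and did not pass in hy5-215 roots. GLK2 (AT5G44190), a transcription factor that drives photosystem and chlorophyll genes, had 5.55, 5.74 and 5.16 RPKM in hy5-215 roots at 28 °C and 6.25, 5.97 and 5.31 RPKM at 21 °C, against 8.94, 8.46 and 8.73 RPKM in Col-0 roots at 28 °C and 5.27, 5.19 and 4.52 RPKM at 21 °C. The temperatures overlapped in hy5-215 and not in Col-0, and at 21 °C the hy5-215 libraries were the higher. GLK2 rose in Col-0 (0.70 ± 0.06, adjusted p = 9.81e-08) and its change in hy5-215 was -0.08 ± 0.06, adjusted p = 0.291, with a difference of -0.77 ± 0.09, adjusted p = 2.57e-05. HYH (AT3G17609), the closest relative of HY5, had 1.47, 0.802 and 1.84 RPKM in hy5-215 roots at 28 °C and 3.40, 3.33 and 3.20 RPKM at 21 °C, against 19.7, 19.7 and 18.5 RPKM in Col-0 roots at 28 °C and 16.3, 13.8 and 14.3 RPKM at 21 °C. All hy5-215 libraries lay far below those of Col-0. HYH fell in hy5-215 (-0.89 ± 0.11, adjusted p = 5.54e-06) and rose in Col-0 (0.36 ± 0.11, adjusted p = 0.00899).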

How the data were processed

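RNA of roots and shoots was sequenced on a NovaSeq instrument and, per the authors' methods and processing notes, aligned with STAR 2.7.0a to TAIR10. The values are RPKM that the authors computed with edgeR (3.36.0) and deposited in 1 table of all 36 libraries. The column of hy5-215 roots at 21 °C, replicate 1, lacks the organ in its name and was matched by the library name in its label. The counting tool, strand setting and annotation release are not given in the sources used here. Dividing by the value of 1 read gave whole reads for 100% of values above 0 (tolerance 0.001), so depth was known. Of 24532 genes, 754 were at 0 in every library.

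The 44 members and the other lists were chosen with earlier results of these data known. Gene symbols came from RefSeq (TAIR10.1, 44 of 44 matched; PSBS is NPQ4 there). limma 3.58.1 (R 4.3.3, moderated with a trend) was run on log2(RPKM + 1), with a group mean for each of 6 groups, in roots (17742 genes whose mean reached 1 RPKM), in shoots (16817) and in all libraries for the organ difference (18173). The 19 comparisons had Benjamini-Hochberg adjustment over all genes tested. The code was tested on simulated data. Sums and plots used Python 3.11.15.

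Genes described in full were, per complex, the 2 largest and the smallest change with temperature in Col-0 roots, the 2 largest differences of response between hy5-215 and Col-0 roots, the 2 largest changes in Col-0 shoots, each member under the filter, and at most 2 of each other list. LHB1B2, LHCA4, PSBO1 and PSBO2 in roots, LHB1B1 in shoots and the single values of other members were added after their values were seen.

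Alternatives were pseudocounts of 0.1 and 0.5 RPKM, no filter or 5 RPKM, median-of-ratios and quantile scaling, only the compared groups, no trend, a replicate block, voom on whole reads, and leaving out each library.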

Additional observations from a re-analysis of the deposited data

Results flagged for a closer look

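Each result here was picked because the difference between effects was itself tested with limma and passed after Benjamini-Hochberg adjustment. The response to temperature differed between hy5-215 and Col-0 for 30 members in roots (0 higher, 30 lower in hy5-215; voom on read counts called 14 lower and 0 higher) and for 30 in shoots (2 higher, 28 lower). It differed between the shoot libraries labelled chl1.5 and Col-0 shoots for 31 members (1 higher, 30 lower), and between Col-0 roots and Col-0 shoots for 40 (39 higher, 1 lower in roots). The 40 include members under 1 RPKM in roots, such as LHCB2.3 and Lhca6, where the added 1 RPKM shrinks the root change.

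Of the genes named for a large difference between hy5-215 and Col-0 roots, CAB1 (-2.284), PSBQ-2 (-2.148), PSBR (-1.935) and PSAD-2 (-1.748) had the largest differences of log2 fold change. The rank of CAB1 rested on replicate 2 of hy5-215 at 28 °C. Without that library the differences were -1.54 for CAB1, -1.91 for PSBQ-2, -1.81 for PSBR and -1.80 for PSAD-2. With all libraries, the differences of LHCB2.1 (-1.451), LHCA2 (-1.385), PSAH-1 (-1.367) and LHCA3 (-1.061) were smaller. PSBR and PSBQ-2 fell in hy5-215 and rose in Col-0, whereas LHCA2 and LHCA3 rose in both. The other 4 rose in Col-0 and did not pass in hy5-215, where CAB1 rose by 1.14 (limma adjusted p = 0.00408) without replicate 2 at 28 °C. With voom the differences of PSAH-1 (adjusted p = 0.244) and LHCA3 (adjusted p = 0.116) did not pass. PSAH-1 was at 0.0339 to 0.259 RPKM in hy5-215 roots, and members this low in hy5-215 passed the filter through the other genotypes.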

How the results depend on the processing

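The rise in Col-0 and chl1.5 roots and the lower levels in hy5-215 roots kept their direction, and their counts stayed within 1.5 times, under every alternative listed above. Precision was lowest for members under 1 RPKM, where single reads and the pseudocount set the fold change, and for the small differences between chl1.5 and Col-0 roots. Some shoot directions turned under quantile scaling. The cause of these and of the other changes was not tested.

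The count of members called for temperature in hy5-215 roots (11) was 18 with a pseudocount of 0.1 RPKM, and DEGs there (0) were 5 with that pseudocount and 3 with voom. The lower response of hy5-215 roots (30) was 14 with voom. For chl1.5 over Col-0 roots, the 8 members at 21 °C became 17 with quantile scaling and 14 with the compared groups only, and the 2 at 28 °C became 1 with either lower pseudocount, with no filter and with a filter at 5 RPKM, 7 with the median of ratios, 6 with quantile scaling and 6 with voom. In shoots, hy5-215 over Col-0 at 21 °C (26) was 19 with the median of ratios (10 higher, 9 lower). The libraries labelled chl1.5 over Col-0 gave 17 with quantile scaling at 21 °C (35), and at 28 °C (17) gave 8 with no filter, 8 with the median of ratios and 11 without the trend. Their difference of response (31) was 17 with quantile scaling. The median of ratios moved the median change of all genes in these libraries to 0.02, against 0.10 as deposited, and that of the members to -0.42, against -0.31.

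With voom, signs turned for the difference of response between hy5-215 and Col-0 roots of Lhca5 (0.078) and PSBS (0.32), and for the organ difference of Lhca6 (1.05). With quantile scaling they turned for the temperature change of LHCA2 (0.27) and LHB1B1 (0.061) in the libraries labelled chl1.5, for LHCA2 in hy5-215 over Col-0 shoots at 28 °C (0.0097), for the response of CAB2 (-0.034) and PSBS (0.041) in hy5-215 shoots and for that of LHB1B1 (0.034) in the libraries labelled chl1.5.

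Leaving out 1 library at a time gave, for temperature, 35 to 37 members in Col-0 roots, 35 to 37 in chl1.5 roots and 7 to 22 in hy5-215 roots (lowest without replicate 3 of hy5-215 at 21 °C, highest without replicate 2 at 28 °C), and 27 to 33 in Col-0 shoots, 39 to 42 in hy5-215 shoots and 39 to 40 in the libraries labelled chl1.5. DEGs were 22 to 28 in Col-0, 23 to 26 in chl1.5 and 0 to 4 in hy5-215 roots. hy5-215 over Col-0 gave 36 to 38 at 28 °C and 36 to 37 at 21 °C in roots, and 33 to 42 and 22 to 28 in shoots. chl1.5 over Col-0 gave 0 to 10 at 28 °C and 3 to 18 at 21 °C in roots, and 9 to 19 and 27 to 37 in the shoot libraries labelled chl1.5. The difference of response was called for 26 to 32 in hy5-215 roots, 28 to 37 in hy5-215 shoots, 0 in chl1.5 roots throughout and 29 to 32 in the libraries labelled chl1.5, and the organ difference for 40 to 42. Over these refits, 5225 single-gene results kept their call, 115 lost it, 51 gained it and 0 reversed.

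No label says that equal replicate numbers were grown together, so the samples were not paired. Deviations of equal-numbered libraries correlated above 0.1 in 6 of 9 root pairs (-0.274 to 0.286) and 5 of 9 shoot pairs (-0.262 to 0.479). These mixed values do not settle whether equal-numbered libraries shared a batch. A replicate block brought the count for chl1.5 over Col-0 roots at 28 °C to 1 and moved no other count by more than 1.5 times.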

Other observations

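In shoots the other genes of the photosynthetic chain moved in both directions at 28 °C, as did the genes tested as a whole. Of the 14 electron transport and ATP synthase genes, 5 rose and 5 fell in hy5-215 shoots (46.8% of all genes rose and 30.4% fell), 5 rose and 5 fell in the libraries labelled chl1.5 (49.9% and 28.4%), and 8 rose and 4 fell in Col-0 shoots, where 46.2% of all genes rose and 30.7% fell. FED A, the main leaf ferredoxin, which takes electrons from photosystem I, had 1158, 1162 and 1147 RPKM in hy5-215 shoots at 28 °C and 2721, 2726 and 2674 RPKM at 21 °C, against 1372, 1375 and 1362 RPKM in Col-0 shoots at 28 °C and 2180.1, 2142 and 2148 RPKM at 21 °C. It fell in each genotype, with a limma log2 fold change of -1.23 ± 0.02, adjusted p = 8.89e-19 in hy5-215 and -0.65 ± 0.02, adjusted p = 6.81e-15 in Col-0. PGRL1B, of cyclic electron flow around photosystem I, rose in Col-0 shoots, with 23.8, 26.1 and 26.4 RPKM at 28 °C and 12.4, 12.6 and 13.2 RPKM at 21 °C (0.95 ± 0.06, adjusted p = 2.05e-10, limma).

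Of the 17 assembly and repair genes, 3 rose and 11 fell in hy5-215 shoots, 6 rose and 7 fell in the libraries labelled chl1.5, and 4 rose and 7 fell in Col-0 shoots. The shares of all genes that rose and fell there were 46.8% and 30.4% in hy5-215, 49.9% and 28.4% in the libraries labelled chl1.5, and 46.2% and 30.7% in Col-0. STN8, a kinase of photosystem II proteins, had 63.7, 59.8 and 58.2 RPKM at 28 °C and 38.3, 37.7 and 36.4 RPKM at 21 °C in Col-0 shoots (0.68 ± 0.04, adjusted p = 5.76e-11, limma). CGA1, a GATA transcription factor of chloroplast development, was lower in hy5-215 than in Col-0 shoots at 28 °C, with 1.59, 1.78 and 1.64 RPKM in hy5-215 and 4.40, 5.37 and 5.05 RPKM in Col-0 (-1.15 ± 0.08, adjusted p = 1.68e-09, limma).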
